A study of Mus musculus with 58 samples.

Results

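Mertk, Axl, Gas6 and Lrp1 are 4 genes of the uptake of dying cells, and they were read from the 25307 genes of a deposited table of normalized counts by matching Ensembl identifiers to GENCODE M21 symbols; all 4 were found. RNA 3′ ends were sequenced from Kupffer cells (resident liver macrophages, KC), monocyte-derived macrophages (MoMF) and monocytes (Mo) isolated from the livers of 129SV mice. Each cell type came from 5 groups of mice: Sham6w, the controls at 6 weeks; CBDL2w, common bile duct ligation at 2 weeks, labelled onset of cholestatic injury; CBDL6w, ligation at 6 weeks, labelled advanced injury; DSS, acute colitis; and CBDL+DSS, colitis as a second hit on advanced injury by ligation. There were 58 libraries, 4 in each of the 15 groups except 3 each in Sham6w MoMF and Sham6w Mo, and 9 libraries pooled replicates, joining 2 or 3 replicate numbers in their labels. Pooled libraries were Sham6w MoMF 1+2+5 and 4+6, Sham6w Mo 1+2+5 and 3+6, and DSS MoMF 5+6. In CBDL+DSS they were Kupffer cell 1+3 and 4+5, MoMF 4+5 and Mo 4+5. CBDL2w and CBDL6w held no pooled library. Without the pooled libraries, Sham6w MoMF kept only replicate 3 and Sham6w Mo only replicate 4. Genotype, sex and age of the mice and the gating of the cells are not given. DSS and CBDL+DSS carry no time in their labels, and whether CBDL+DSS mice were ligated for as long as CBDL6w mice is unknown. The controls were all at 6 weeks, a later time than CBDL2w. Whether each replicate was a separate animal is not stated, and p-values here reflect the spread among these samples, which may be technical.

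Kupffer cell libraries held 228741 to 521954 recovered reads, MoMF libraries 118687 to 461071 and monocyte libraries 235531 to 377725. Kupffer cell markers (8 genes) took 0.693 to 0.793% of the reads in Sham6w Kupffer cells and 0.0838 to 0.14% in Sham6w monocytes. Monocyte markers (7 genes) took 0.26 to 0.356% in Sham6w monocytes and 0.0174 to 0.0301% in Sham6w Kupffer cells. In Sham6w both lists were thus higher in the cell type they name. Tissue macrophage markers, the list meant to cover MoMF too, did not set MoMF apart. They took 0.264 to 0.325% in Sham6w MoMF and 0.511 to 0.59% in Sham6w Kupffer cells. Kupffer cell markers took 0.0918 to 0.298% in Sham6w MoMF. The Sham6w MoMF library labelled 1+2+5 was the shallowest of all, with 118687 reads.

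Mertk and Axl are receptor tyrosine kinases of the TAM family, which macrophages use to bind and engulf apoptotic cells and to dampen inflammatory signalling. Gas6 is a secreted bridging ligand that binds phosphatidylserine on the dying cell and TAM receptors on the phagocyte. Lrp1 is a large endocytic receptor of the LDL receptor family that, with calreticulin as a partner, also takes part in the uptake of dying cells and of many extracellular ligands.

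Mertk (ENSMUSG00000014361) lies on chromosome 2 at 128698956 to 128802894, plus strand, and Axl (ENSMUSG00000002602) on chromosome 7 at 25757273 to 25788705, minus strand, both on GRCm38. Gas6 (ENSMUSG00000031451) lies on chromosome 8 at 13465374 to 13494490, and Lrp1 (ENSMUSG00000040249) on chromosome 10 at 127538161 to 127621148, both on the minus strand. Values are of whole genes, with reads from their 3′ ends. The annotation places the protein-coding gene Tmem255b on the opposite strand across the 3′ end of Gas6, and antisense genes within Mertk (Gm14011) and Lrp1 (Gm16217); these 3 are not analysed here. A snoRNA, Gm23172, lies in Mertk on the same strand and held 26 reads over all libraries. The strand setting of the counting is not given, so for Gas6 reads of Tmem255b cannot be told apart from its own.

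The 250 bases before the RefSeq start of the 2 receptor genes are shown because both receptors fell in Kupffer cells in colitis alone and rose in Kupffer cells and MoMF in CBDL+DSS against colitis alone. They come from RefSeq on GRCm38.p6, 5′ to 3′ on the gene's strand, at chr2:128698665-128698914 (plus) and chr7:25788734-25788983 (minus), and capitals mark the GC box GGGCGG on either strand.
Mertk: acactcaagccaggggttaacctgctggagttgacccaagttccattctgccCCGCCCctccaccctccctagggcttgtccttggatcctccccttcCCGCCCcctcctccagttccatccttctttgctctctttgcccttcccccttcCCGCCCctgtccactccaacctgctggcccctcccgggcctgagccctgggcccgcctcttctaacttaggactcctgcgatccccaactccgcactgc
Axl: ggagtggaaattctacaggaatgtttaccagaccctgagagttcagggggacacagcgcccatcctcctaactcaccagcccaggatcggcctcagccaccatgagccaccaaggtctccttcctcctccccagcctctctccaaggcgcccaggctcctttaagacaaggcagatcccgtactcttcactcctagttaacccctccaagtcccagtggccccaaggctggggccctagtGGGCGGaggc
The GC box occurred 3 times in this window of Mertk, 1 time in that of Axl, 4 times in that of Gas6 and 1 time in that of Lrp1, and 32.7% of 32851 RefSeq windows of the same length held at least 1. The core motifs AGGTCA (nuclear receptors), AGAACA (glucocorticoid receptor) and TGCTGA (MAF factors), searched on both strands, had 0 matches in all 4 windows. They occurred in 14.0%, 16.1% and 16.1% of the 32851 windows. A match or its absence describes these letters in this window only.

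Levels below are normalized counts, the authors' gene counts divided by 1 size factor per library. Differences are log2(normalized count + 1) ± SE from limma, and a gene passed where its p, adjusted by Benjamini-Hochberg over all genes of the comparison, was under 0.05. Of the 21 member values that passed within a cell type, 8 did not pass with no filter on low genes and 12 did not with only the 49 libraries of single replicate numbers. In bulk libraries, fewer cells of a type and less RNA per cell cannot be told apart.

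Mertk was highest in Kupffer cells in every injury group. Over the 20 Kupffer cell libraries its level ran from 65.5 to 187, with a median of 105; over 19 MoMF libraries from 5.82 to 78.0, median 22.3; and over 19 monocyte libraries from 6.34 to 45.9, median 23.2. By group mean, the order was Kupffer cells in CBDL+DSS (159 ± 19.6, SD, n = 4), Sham6w (135 ± 27.8), CBDL2w (104 ± 6.52), CBDL6w (93.5 ± 12.6) and DSS (87.1 ± 16.0), then MoMF in CBDL+DSS (64.5 ± 12.7). Below these came monocytes in Sham6w (41.5 ± 6.47, n = 3), MoMF in Sham6w (40.7 ± 17.7, n = 3) and in CBDL2w (37.1 ± 16.7), and monocytes in CBDL+DSS (30.2 ± 10.2). The lowest 5 means lay between 13.6 and 16.9, in CBDL6w and DSS MoMF and in CBDL2w, CBDL6w and DSS monocytes. Neighbours in this order overlapped in their libraries, except that all CBDL+DSS MoMF libraries lay above all Sham6w monocyte libraries.

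**Figure D1:**
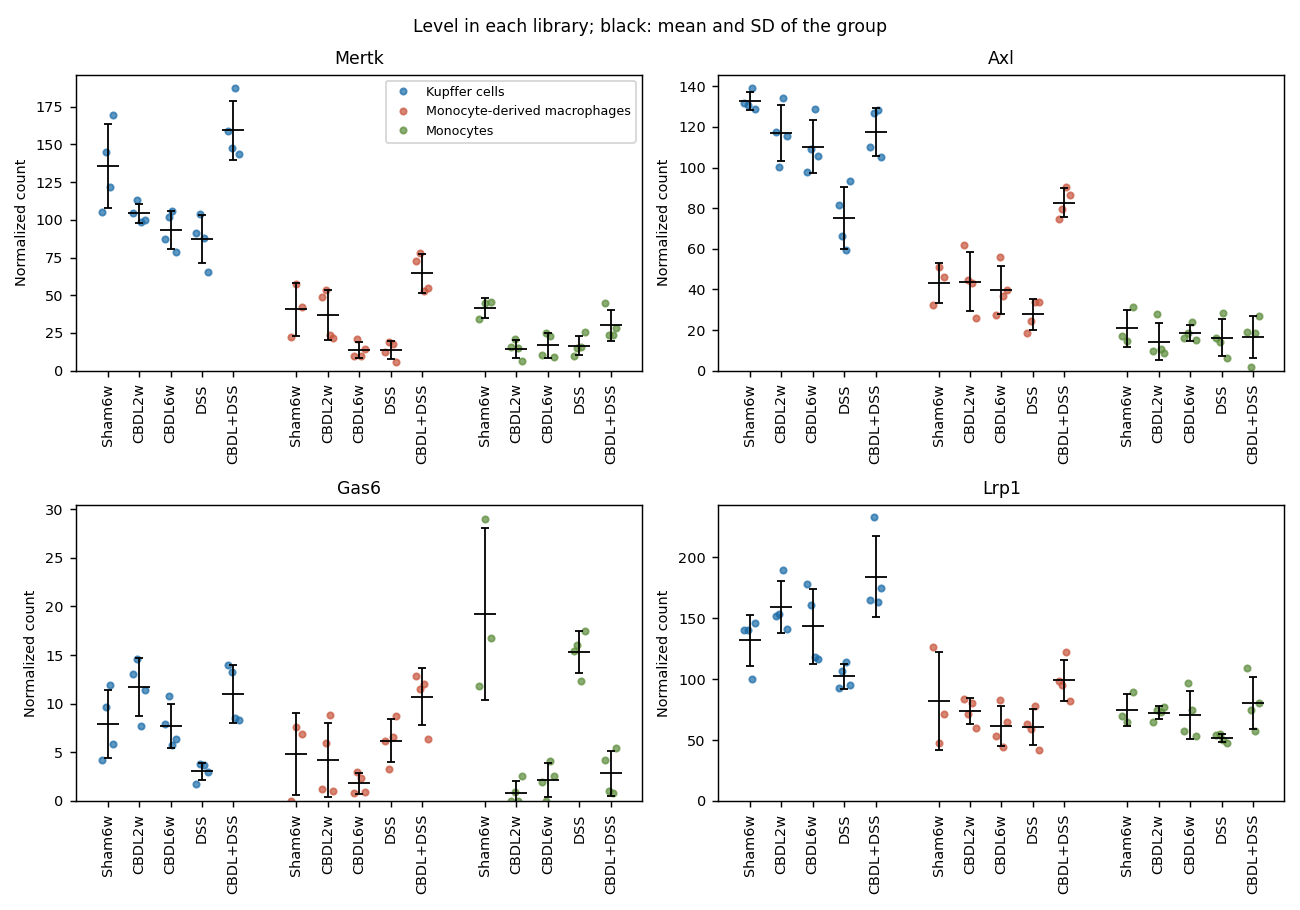
Normalized counts of the 4 genes (vertical axes, from 0) in each library (points) of the 5 injury groups of Kupffer cells, monocyte-derived macrophages and monocytes, with the mean and SD in black. Within each injury group the means of Mertk and Axl are highest in Kupffer cells. Gas6 has its highest means in Sham6w and DSS monocytes.

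Axl separated the cell types more evenly. Its level ran from 59.5 to 139 in Kupffer cells (median 113), from 18.5 to 90.4 in MoMF (median 43.1) and from 2.05 to 31.3 in monocytes (median 16.3). The Sham6w Kupffer cell mean of 133 ± 4.45 (SD, n = 4) was the highest of the 15, and its libraries did not overlap those of the next group, CBDL+DSS Kupffer cells (118 ± 11.8). CBDL2w (117 ± 13.8) and CBDL6w (110 ± 13.1) Kupffer cells followed. Without overlapping these came CBDL+DSS MoMF (82.8 ± 7.11), which overlapped DSS Kupffer cells (75.1 ± 15.2). The other 4 MoMF groups had means of 27.7 to 43.9 and the 5 monocyte groups 14.3 to 21.0, each overlapping its neighbours.

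Gas6 was low, at 0 to 24 recovered reads per library, and its order differed from that of the receptors. Sham6w monocytes (19.2 ± 8.83, n = 3) and DSS monocytes (15.3 ± 2.19) had the highest means, and CBDL2w monocytes the lowest (0.859 ± 1.20). Gas6 was listed at 0 in 3 monocyte libraries and 1 MoMF library, and every pair of neighbours in the order overlapped. Lrp1 was present in every library, at 93.0 to 233 in Kupffer cells, 41.7 to 126 in MoMF and 47.8 to 109 in monocytes. Its highest mean was in CBDL+DSS Kupffer cells (184 ± 33.3) and its lowest in DSS monocytes (51.8 ± 3.34), and every pair of neighbours overlapped.

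Between cell types of the same injury group, Kupffer cells exceeded monocytes in Mertk, Axl and Lrp1 in all 5 groups. Mertk was higher by 1.67 ± 0.36 in Sham6w, 2.87 ± 0.33 in CBDL2w, 2.52 ± 0.33 in CBDL6w, 2.37 ± 0.33 in DSS and 2.41 ± 0.33 in CBDL+DSS (limma adjusted p at most 0.000408). Axl was higher by 2.28 to 3.13 and Lrp1 by 0.81 to 1.21. Lrp1 in Sham6w did not pass without monocyte replicate 1+2+5 or 3+6 (limma adjusted p up to 0.0724). With Gas6, which passed in 4 groups, 3 of 4 genes passed in Sham6w and 4 of 4 in each other group, where 16%, 14.4%, 15.3%, 14.7% and 14.4% of the 7555 genes tested passed in Sham6w, CBDL2w, CBDL6w, DSS and CBDL+DSS.

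Gas6 differed in sign between groups. It was higher in Kupffer cells than in monocytes in CBDL2w (2.95 ± 0.54), CBDL6w (1.66 ± 0.54) and CBDL+DSS (1.83 ± 0.54) and lower in DSS (-2.03 ± 0.54, limma adjusted p = 0.00501). In Sham6w it stood at -1.18 ± 0.58 (limma adjusted p = 0.188). The CBDL6w value did not pass without Kupffer cell replicate 1 or 2 or monocyte replicate 2, nor by edgeR or with no filter, and the CBDL+DSS value did not without monocyte replicate 2 or 4+5.

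Against MoMF, Kupffer cells were higher in Mertk by 1.31 to 2.76 and in Lrp1 by 0.78 to 1.22 in all 5 groups. Axl passed in 4 groups, by 1.42 to 1.62; in CBDL+DSS its difference was 0.50 ± 0.38 (95% interval -0.26 to 1.26, limma adjusted p = 0.599), with the 2 groups of libraries not overlapping. Gas6 passed in CBDL6w only (1.68 ± 0.54, limma adjusted p = 0.0357). Thus 3, 3, 4, 3 and 2 of the 4 genes passed in Sham6w, CBDL2w, CBDL6w, DSS and CBDL+DSS, where 15.9%, 6.63%, 9.66%, 13.5% and 4.88% of all genes passed. Lrp1 did not pass in Sham6w without MoMF replicate 3 or 4+6, in DSS without MoMF replicate 5+6, or in CBDL+DSS without Kupffer cell replicate 2. Axl in CBDL2w did not pass without MoMF replicate 4, and Gas6 in CBDL6w without replicate 1 or 2 of Kupffer cells or 1 or 4 of MoMF.

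MoMF and monocytes were closer. In CBDL2w, MoMF were higher in Mertk (1.297 ± 0.33) and Axl (1.64 ± 0.38), and in CBDL+DSS in Mertk (1.10 ± 0.33), Axl (2.63 ± 0.38) and Gas6 (1.78 ± 0.54). In Sham6w, Gas6 was lower in MoMF (-2.22 ± 0.62, limma adjusted p = 0.0206), a call that neither edgeR nor DESeq2 made and that was lost without MoMF replicate 1+2+5, the shallowest library, or monocyte replicate 3+6. Thus 1, 2 and 3 of 4 genes passed in Sham6w, CBDL2w and CBDL+DSS, beside 6.15%, 2.01% and 4.29% of all genes. By limma, 0 of 4 passed in CBDL6w (2.16% of all genes) and in DSS (2.32%); 1 and 2 genes had an unadjusted p under 0.05 there, edgeR called 0 in both, and DESeq2 called 1 in CBDL6w and 0 in DSS. In CBDL+DSS, the Mertk call was lost on leaving out any 1 of 7 of the 8 libraries (all but monocyte replicate 1), and the Gas6 call without MoMF replicate 1, 2 or 3 or monocyte replicate 2 or 4+5. In CBDL2w, the Mertk and Axl calls were lost without MoMF replicate 1 or monocyte replicate 4, and that of Mertk also without MoMF replicate 2.

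In Kupffer cells, colitis alone went with less Mertk and Axl. Mertk was 105, 145, 122 and 169 in the 4 Sham6w libraries and 91.2, 104, 87.8 and 65.5 in the 4 DSS libraries. All DSS libraries lay below all Sham6w libraries, the closest pair being 104 and 105. Mertk fell by 0.63 ± 0.17 (limma adjusted p = 0.0295), a call lost without Sham6w replicate 2 or 4 or DSS replicate 3 or 4, with adjusted p up to 0.0946. It was also lost with libraries scaled to equal totals (limma adjusted p = 0.0599). Axl was 132, 131, 139 and 129 in Sham6w and 81.3, 66.3, 59.5 and 93.3 in DSS. The Sham6w libraries lay close together and far above every DSS library. Axl fell by 0.83 ± 0.16 (limma adjusted p = 0.00303), and passed without each of the 8 libraries in turn. Thus 2 of 4 genes passed, beside 7.89% of the 6159 genes tested in Kupffer cells. Gas6 stood at 4.26, 9.70, 11.9 and 5.81 in Sham6w and 1.79, 3.75, 3.66 and 2.98 in DSS, without overlap but at 2 to 16 reads per library (-1.08 ± 0.39, limma adjusted p = 0.0825).

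Tissue macrophage markers (8 genes, some of them, such as C1qa and C1qb, also on the list of uptake genes) took 0.511 to 0.59% of the reads in Sham6w Kupffer cells and 0.358 to 0.405% in DSS Kupffer cells. Mitochondrial transcripts took 6.46 to 9.01% and 3.49 to 5.2%, and ribosomal protein genes 7.61 to 8.56% and 11.6 to 13.3%. Monocyte markers took 0.0174 to 0.0301% in Sham6w and 0.0338 to 0.0865% in DSS, without overlap. Kupffer cell markers took 0.693 to 0.793% and 0.537 to 0.719%, and neutrophil markers (7 genes) at most 0.00455% and 0.0113%. The part of these in the fall of Mertk and Axl was not tested.

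Ligation alone, or with colitis, was not called against Sham6w in Kupffer cells. By limma, 0 of 4 genes passed in CBDL2w (2.71% of all genes), CBDL6w (3.25%) and CBDL+DSS (3.31%), and edgeR and DESeq2 also called 0; an unadjusted p under 0.05 was seen for 0, 1 and 1 genes. Mertk stood at -0.35 ± 0.17 in CBDL2w, -0.52 ± 0.17 in CBDL6w (limma adjusted p = 0.107) and 0.25 ± 0.17 in CBDL+DSS, and Axl at -0.18 ± 0.16 in CBDL+DSS. Between CBDL2w and CBDL6w, 0 of 4 genes passed by limma, edgeR or DESeq2, 0 had an unadjusted p under 0.05, and 0% of all genes passed. Kupffer cell markers took 0.308 to 0.434% of the reads in CBDL2w and 0.209 to 0.432% in CBDL6w, below the 0.693% of the lowest Sham6w library.

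With ligation present, colitis went with more Mertk in Kupffer cells. The 4 CBDL6w libraries held 87.2, 102, 106 and 78.9, and the 4 CBDL+DSS libraries 159, 148, 187 and 144. The groups did not overlap. Mertk rose by 0.77 ± 0.17 (limma adjusted p = 0.0276), 1 of 4 genes beside 1.74% of all genes. The call was lost on leaving out CBDL6w replicate 1 or 4 or CBDL+DSS replicate 1+3, 4+5 or 6, with adjusted p up to 0.0851. Axl differed by 0.09 ± 0.16 (95% interval -0.24 to 0.42). Kupffer cell markers were higher in CBDL+DSS as well, at 0.498 to 0.622% of the reads against 0.209 to 0.432% in CBDL6w, without overlap. Monocyte markers took 0.0184 to 0.0489% in CBDL+DSS and 0.0403 to 0.0807% in CBDL6w, neutrophil markers 0.00664 to 0.00917% and at most 0.00481%, and tissue macrophage markers 0.497 to 0.55% and 0.552 to 0.695%. Their part in the rise of Mertk was not tested.

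Against colitis alone, all 4 genes were higher in CBDL+DSS Kupffer cells, beside 7.44% of all genes. Mertk rose by 0.88 ± 0.17, Axl by 0.66 ± 0.16, Gas6 by 1.57 ± 0.39 and Lrp1 by 0.83 ± 0.18 (limma adjusted p from 0.00294 to 0.0133). Each kept its call without any 1 of the 8 libraries. Mertk, Axl and Gas6 lost theirs with only single replicate numbers, and Axl and Gas6 also with no filter. Gas6 in DSS rested on 2 to 4 reads per library. Tissue macrophage markers took 0.358 to 0.405% of the reads in DSS and 0.497 to 0.55% in CBDL+DSS, and their part in these rises was not tested. Lrp1 was 93.0, 106, 114 and 95.3 in DSS and 165, 233, 163 and 175 in CBDL+DSS, without overlap. These comparisons share libraries: DSS and CBDL+DSS each enter several of them.

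The effect of colitis differed with ligation for both receptors in Kupffer cells. The difference of the effects was 1.39 ± 0.25 for Mertk (limma adjusted p = 0.00188) and 0.93 ± 0.22 for Axl (adjusted p = 0.0178), while the median over all genes was 0.14. With equal totals that median was 0.05. Thus 2 of 4 genes passed, beside 6.02% of all genes, and both passed without each of 16 libraries in turn. Gas6 (1.55 ± 0.55, adjusted p = 0.0921) and Lrp1 (0.72 ± 0.25, adjusted p = 0.085) did not pass.

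**Figure D2:**
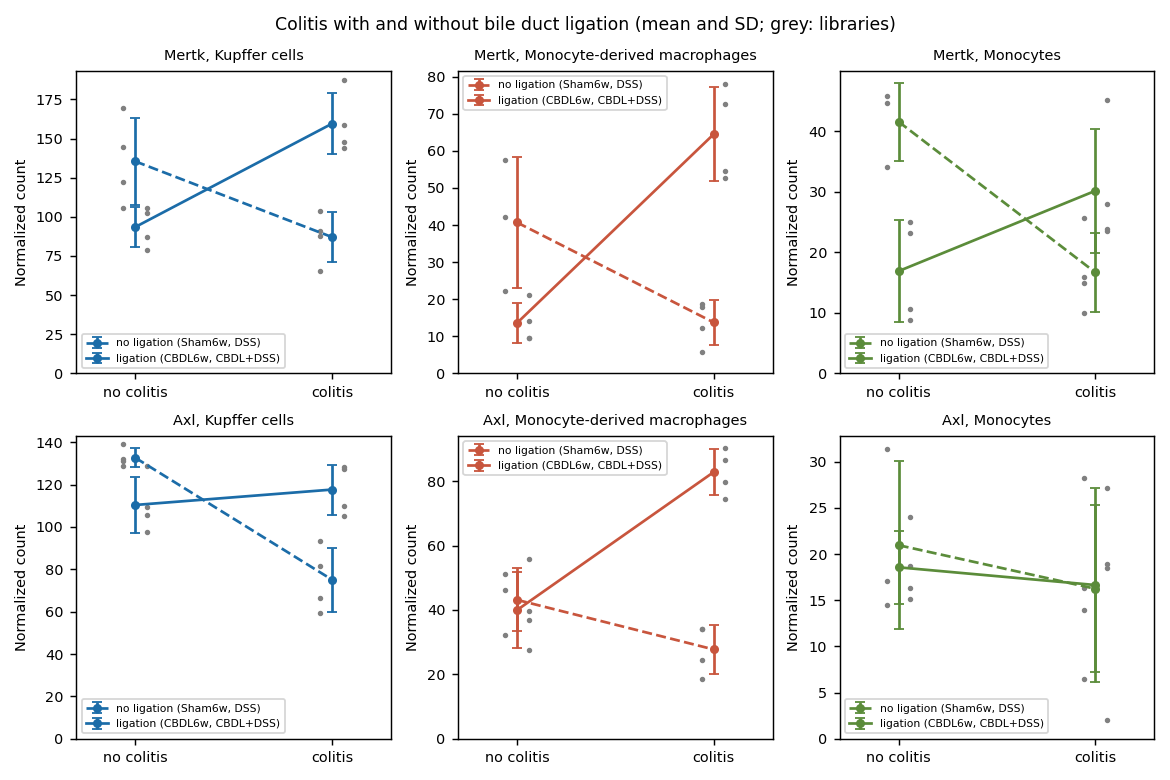
Normalized counts of Mertk and Axl (vertical axes, from 0) without and with colitis, for mice without ligation (dashed) and with ligation (solid), as means and SD with libraries in grey. In Kupffer cells the Mertk lines cross, from 135 to 87.1 without ligation and from 93.5 to 159 with it.

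Mertk and Axl showed the same signs in MoMF. Only the colitis effect without ligation was compared with that of Kupffer cells, and 0 of 4 genes passed there. Whether the other colitis effects differed in size was not tested. Mertk was 22.3, 57.6 and 42.2 in the 3 Sham6w libraries, 12.4, 18.9, 18.0 and 5.82 in DSS, 9.44, 21.1, 9.58 and 14.2 in CBDL6w, and 72.6, 78.0, 52.8 and 54.5 in CBDL+DSS. Every CBDL+DSS library lay above every CBDL6w and every DSS library. Mertk rose by 2.22 ± 0.39 from CBDL6w to CBDL+DSS (limma adjusted p = 0.00209) and by 2.25 ± 0.39 from DSS to CBDL+DSS (adjusted p = 0.000852). Both passed without each of the 8 libraries and under all 7 other settings.

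Axl in MoMF was 32.2, 51.1 and 46.2 in Sham6w, 18.5, 24.4, 34.0 and 34.0 in DSS, 27.5, 55.8, 36.7 and 39.8 in CBDL6w, and 74.4, 79.8, 90.4 and 86.6 in CBDL+DSS. For Axl all CBDL+DSS libraries lay above all other MoMF libraries, while for Mertk they overlapped Sham6w. Axl rose by 1.07 ± 0.28 from CBDL6w (limma adjusted p = 0.032) and by 1.58 ± 0.28 from DSS (adjusted p = 0.00103). The rise from CBDL6w was lost on leaving out any 1 of 7 of the 8 libraries (all but CBDL6w replicate 2), with adjusted p up to 0.111; the rise from DSS passed without each. Thus 2 of 4 genes passed in both comparisons, beside 4.16% and 9.2% of the 6079 genes tested in MoMF.

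Against Sham6w, limma called 0 of 4 genes in MoMF in CBDL2w (3.06% of all genes), CBDL6w (1.22%), DSS (2.07%) and CBDL+DSS (9.8%). An unadjusted p under 0.05 was seen for 0, 1, 1 and 1 genes; edgeR called 0, 0, 1 and 0, and DESeq2 0, 1, 1 and 1. Mertk stood at -1.49 ± 0.42 in CBDL6w (limma adjusted p = 0.0865), -1.52 ± 0.42 in DSS (0.0598) and 0.73 ± 0.42 in CBDL+DSS, and Axl at -0.63 ± 0.31 in DSS and 0.95 ± 0.31 in CBDL+DSS (limma adjusted p = 0.0528). Without the shallow Sham6w library 1+2+5, 1 gene passed in CBDL6w and 1 in DSS, and without Sham6w replicate 3, 1 passed in CBDL+DSS. Between CBDL2w and CBDL6w limma and edgeR called 0 of 4 and DESeq2 1, with 1 gene at an unadjusted p under 0.05, beside 0.0823% of all genes.

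The difference of the colitis effects in MoMF was 3.73 ± 0.58 for Mertk (limma adjusted p = 0.00125) and 1.71 ± 0.42 for Axl (adjusted p = 0.0328), 2 of 4 genes beside 2.09% of all genes. Mertk passed without each of 15 libraries in turn. Axl did not pass without any 1 of 11 of the 15: Sham6w replicate 3 or 4+6, CBDL6w 1, 3 or 4, DSS 1 or 2, or any CBDL+DSS library, with adjusted p up to 0.0695. The tissue macrophage marker share in MoMF was 0.463 to 0.551% in CBDL+DSS and at most 0.379% in each other group. Monocyte markers took 0.12 to 0.149% in CBDL+DSS, below the 0.175 to 0.308% of CBDL6w and the 0.152 to 0.2% of DSS, and 0.0708 to 0.105% in Sham6w. Mitochondrial transcripts took 4.61 to 5.48% in CBDL+DSS and 2 to 2.65% in DSS. Kupffer cell markers took 0.0918, 0.274 and 0.298% in the Sham6w libraries with 22.3, 57.6 and 42.2 of Mertk, and at most 0.209% in each other MoMF group. The part of these in the Mertk and Axl differences was not tested.

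**Figure D3:**
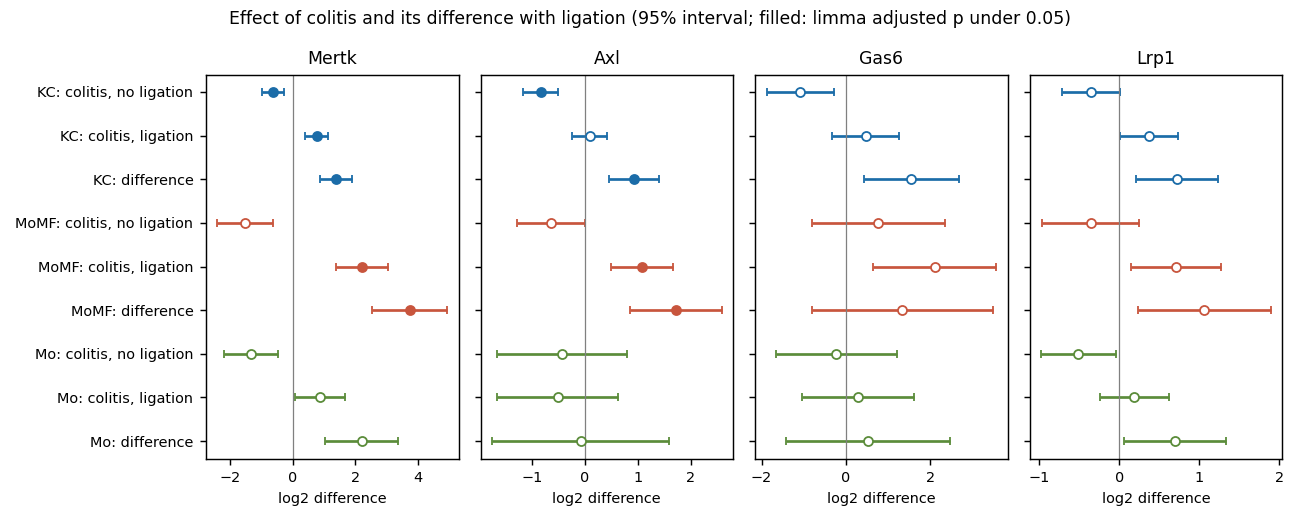
Log2 differences (horizontal axes, 95% intervals) for colitis without ligation (DSS against Sham6w), with ligation (CBDL+DSS against CBDL6w) and their difference, in each cell type, with filled points for a limma adjusted p under 0.05. For Mertk the difference is 1.39 in Kupffer cells and 3.73 in MoMF.

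In monocytes, Mertk was lower in CBDL2w and CBDL6w than in Sham6w, and Gas6 was lower in all 3 ligated groups. Mertk was 34.1, 44.7 and 45.9 in the 3 Sham6w libraries, 15.6, 20.7, 15.0 and 6.34 in CBDL2w, 10.6, 25.0, 23.2 and 8.84 in CBDL6w, and 45.2, 23.5, 23.9 and 28.0 in CBDL+DSS. All Sham6w libraries lay above all CBDL2w and CBDL6w libraries, while CBDL+DSS overlapped Sham6w. Mertk fell by 1.56 ± 0.41 in CBDL2w (limma adjusted p = 0.0126) and by 1.37 ± 0.41 in CBDL6w (adjusted p = 0.0333). In CBDL+DSS it stood at -0.49 ± 0.41 (limma adjusted p = 0.5). The CBDL2w call was lost without Sham6w replicate 3+6 or CBDL2w replicate 4 (adjusted p up to 0.0538), and the CBDL6w call without any Sham6w library or CBDL6w replicate 1 or 4 (adjusted p up to 0.109) and by edgeR (adjusted p = 0.0521). Sham6w stood apart in other lists too: monocyte markers took 0.26 to 0.356% of its reads against 0.423 to 0.599% in the other 4 monocyte groups, and ribosomal protein genes 9.29 to 10.4% against 12.2 to 17.5%. Neutrophil markers took 0.0173, 0.21 and 0.175% in Sham6w libraries 1+2+5, 3+6 and 4 and at most 0.0292% in CBDL2w and CBDL6w. The part of these in the Mertk and Gas6 results was not tested.

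Gas6 in monocytes was 11.8, 29.0 and 16.8 in Sham6w, 0, 0.901, 0 and 2.54 in CBDL2w, 1.92, 0, 4.14 and 2.52 in CBDL6w, 15.4, 16.1, 12.3 and 17.5 in DSS, and 4.20, 1.02, 0.772 and 5.42 in CBDL+DSS. Sham6w and DSS libraries were high and every ligated library was low, without overlap. Gas6 met the filter on low genes in monocytes only through Sham6w and DSS libraries, so it entered these tests through the groups where it was high. The calls below also passed with no filter. Gas6 fell by 3.56 ± 0.69 in CBDL2w (limma adjusted p = 0.00116), by 2.81 ± 0.69 in CBDL6w (adjusted p = 0.00961) and by 2.52 ± 0.69 in CBDL+DSS (adjusted p = 0.02) against Sham6w. The CBDL6w call was lost without Sham6w replicate 3+6 (adjusted p = 0.0712), and the CBDL+DSS call without Sham6w replicate 3+6 or 4 or CBDL+DSS replicate 2 or 4+5 (adjusted p up to 0.106). Against DSS, Gas6 in CBDL+DSS differed by -2.29 ± 0.64 (limma adjusted p = 0.0359), a call lost without any DSS library or CBDL+DSS replicate 2 or 4+5 (adjusted p up to 0.107).

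These values rest on few reads. Summed over libraries, Gas6 had 48 reads in Sham6w, 61 in DSS, 12 in CBDL+DSS, 9 in CBDL6w and 3 in CBDL2w monocytes. The ratio of reads per total to Sham6w was 0.0355 in CBDL2w (exact 95% interval 0.00707 to 0.11), 0.116 in CBDL6w (0.05 to 0.239), 0.146 in CBDL+DSS (0.0704 to 0.278) and 0.813 in DSS (0.548 to 1.21). These intervals cover counting error only.

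In monocytes, 2 of 4 genes passed in CBDL2w (13.8% of the 6112 genes tested), 2 in CBDL6w (11.2%), 1 in CBDL+DSS against Sham6w (13.1%) and 1 in CBDL+DSS against DSS (5.81%). Limma called 0 of 4 in DSS against Sham6w (1.59%), CBDL2w against CBDL6w (0%), CBDL+DSS against CBDL6w (0.573%) and the difference of colitis effects (0.311%). There 2, 0, 1 and 2 genes had an unadjusted p under 0.05, edgeR called 0 in each, and DESeq2 called 1, 0, 0 and 1. Mertk stood at -1.33 ± 0.41 in DSS (limma adjusted p = 0.0854) and its difference of colitis effects at 2.21 ± 0.56 (adjusted p = 0.0692). Gas6 stood at -0.23 ± 0.69 in DSS.

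Endothelial markers moved with Gas6 in monocytes. The 12 listed markers together took 0.206 to 0.358% of the reads in Sham6w and 0.144 to 0.296% in DSS monocytes, but 0.00343 to 0.0111% in CBDL2w, 0.00324 to 0.0201% in CBDL6w and 0.0147 to 0.023% in CBDL+DSS. Kdr, the endothelial VEGF receptor, averaged 162 and 111 in Sham6w and DSS against at most 11.0 in each ligated group; Oit3 was at 0 in all 4 CBDL6w libraries and Tie1 in all 4 CBDL+DSS libraries. The dendritic cell list (6 genes) moved likewise, at 0.0211 to 0.0353% in Sham6w and 0.0127 to 0.0285% in DSS against at most 0.00435% in the ligated groups. Mertk was 9.98 to 25.7 in DSS monocytes, below every Sham6w library. The part of other cells in the Gas6 result was not tested.

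**Figure D4:**
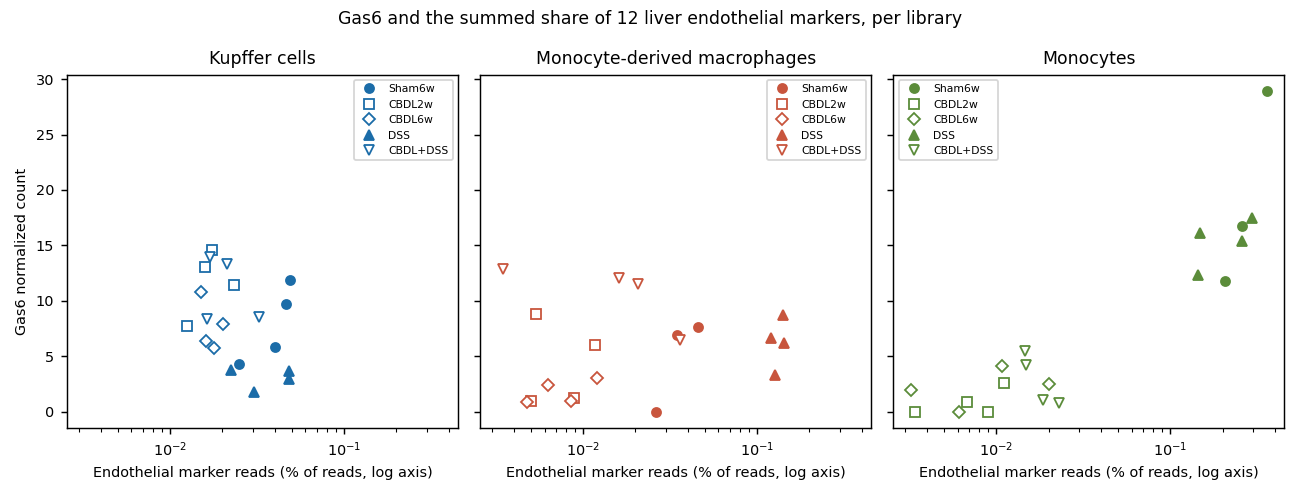
Gas6 normalized count (vertical axis) against the share of reads from 12 endothelial markers (horizontal log axis) in each library, by cell type, with open symbols for ligated mice. In monocytes, Sham6w and DSS libraries lie at a share of at least 0.144% and a Gas6 level of at least 11.8, and all ligated libraries below both.

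In MoMF, where the endothelial share was 0.121 to 0.143% in DSS and at most 0.0455% in each other group, Gas6 was 3.33 to 8.73 in DSS, 0 to 7.60 in Sham6w, 0.995 to 8.83 in CBDL2w, 0.858 to 3.02 in CBDL6w and 6.41 to 12.9 in CBDL+DSS. The CBDL6w libraries, with an endothelial share of 0.00478 to 0.012%, lay below every DSS library in Gas6, and the CBDL+DSS libraries, with 0.00346 to 0.0362%, overlapped DSS. In Kupffer cells that share was at most 0.0488%.

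Few differences of effects between cell types passed. Their SE against MoMF was 0.49 for Mertk, 0.56 for Axl, 0.79 for Gas6 and 0.32 for Lrp1. A difference that did not pass is thus not shown to be absent. The difference in Gas6 between an injury group and Sham6w, in Kupffer cells minus that in monocytes, was 4.12 ± 0.79 in CBDL2w (limma adjusted p = 0.00104), 2.84 ± 0.79 in CBDL6w (adjusted p = 0.0491) and 3.01 ± 0.79 in CBDL+DSS (adjusted p = 0.0499), 1 of 4 genes each beside 1.67%, 1.58% and 0.821% of all genes; edgeR did not call the CBDL6w value. The CBDL2w value passed without each of 15 libraries, while the CBDL6w and CBDL+DSS values were lost without any 1 of 13 and of 12 of them, with adjusted p up to 0.181 and 0.161. The libraries without which they still passed were Sham6w Kupffer cell replicate 3 for both, monocyte CBDL6w replicate 3 for the first, and monocyte CBDL+DSS replicates 1 and 6 for the second. The monocyte side of the Gas6 values rests on 48 summed reads in Sham6w and 3, 9 and 12 in CBDL2w, CBDL6w and CBDL+DSS. Endothelial markers moved with Gas6 there, and the part of other cells was not tested. For DSS in monocytes (0.238%), limma called 0 of 4, as did edgeR and DESeq2, with 0 genes at an unadjusted p under 0.05. Against MoMF limma, edgeR and DESeq2 called 0 of 4 in CBDL2w (0.344%), CBDL6w (0.397%), DSS (0.86%) and CBDL+DSS (1.99%), with 0, 0, 1 and 1 genes at an unadjusted p under 0.05. These comparisons cover each injury group against Sham6w only; the colitis effect with ligation and the difference of colitis effects were not compared between cell types.

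The other genes of dying cell uptake were a list of 65, by role; Tyro3, Megf10, Adgrb1, Gulp1 and A2m are not analysed here. In Kupffer cells, DSS against Sham6w gave 0 higher and 11 lower of 48 tested, with a median of -0.43 against -0.07 over all genes, where 3.34% rose and 4.55% fell. With equal totals the split was 2 higher and 10 lower. Among those that fell were Apoe, the lipid carrier and Lrp1 ligand (-1.99 ± 0.17), the scavenger receptor Cd36 (-2.64 ± 0.73), the integrin subunit Itgb5 (-1.68 ± 0.26), and the cholesterol exporter Abca1 (-1.18 ± 0.21). The complement components C1qa (-0.69 ± 0.15) and C1qc (-0.58 ± 0.14), and the transcription factor Maf (-1.10 ± 0.15), fell as well. The difference of colitis effects gave 9 higher and 1 lower of 48 (median 0.49 against 0.14 over all genes, where 3.75% were higher and 2.27% lower), among them Apoe (1.93 ± 0.24), Abca1 (1.92 ± 0.30), Mylip (1.91 ± 0.38) and Itgb5 (1.39 ± 0.36). Calr, the calreticulin gene, was lower (-1.46 ± 0.32).

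In MoMF, CBDL+DSS against CBDL6w gave 12 higher and 1 lower of 51 tested (median 0.59 against 0.03; 2.09% of all genes rose and 2.07% fell). Apoe rose by 2.54 ± 0.20, the scavenger receptor Stab1 by 2.54 ± 0.52 and Abca1 by 1.98 ± 0.46. C1qa, C1qb and C1qc rose by 1.37, 1.34 and 1.31. Elmo2, of the engulfment machinery, fell by 1.04 ± 0.26. Against Sham6w, 17 were higher and 1 lower (median 0.66 against 0.08; 4.61% rose and 5.2% fell), with Mylip at 2.80 ± 0.57, Cd93 at 2.47 ± 0.29 and the inhibitory receptor gene Sirpa at 1.67 ± 0.23.

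In monocytes, CBDL2w against Sham6w gave 3 higher and 8 lower of 48 (median -0.28 against -0.10; 8.05% of all genes rose and 5.71% fell). The scavenger receptors Stab2 (-4.97 ± 0.55), Cd36 (-3.74 ± 0.77) and Stab1 (-2.45 ± 0.44) and the protease inhibitor Timp3 (-4.34 ± 0.58) fell, and Stab2 is also on the endothelial list. Pros1, the other TAM ligand, fell by 1.64 ± 0.39. Thbs1 (2.23 ± 0.37) and Lgals3 (1.21 ± 0.18) rose. The endothelial marker share was 0.206 to 0.358% in Sham6w and 0.00343 to 0.0111% in CBDL2w monocytes. The part of other cells in the differences of these uptake genes was not tested.

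**Figure D5:**
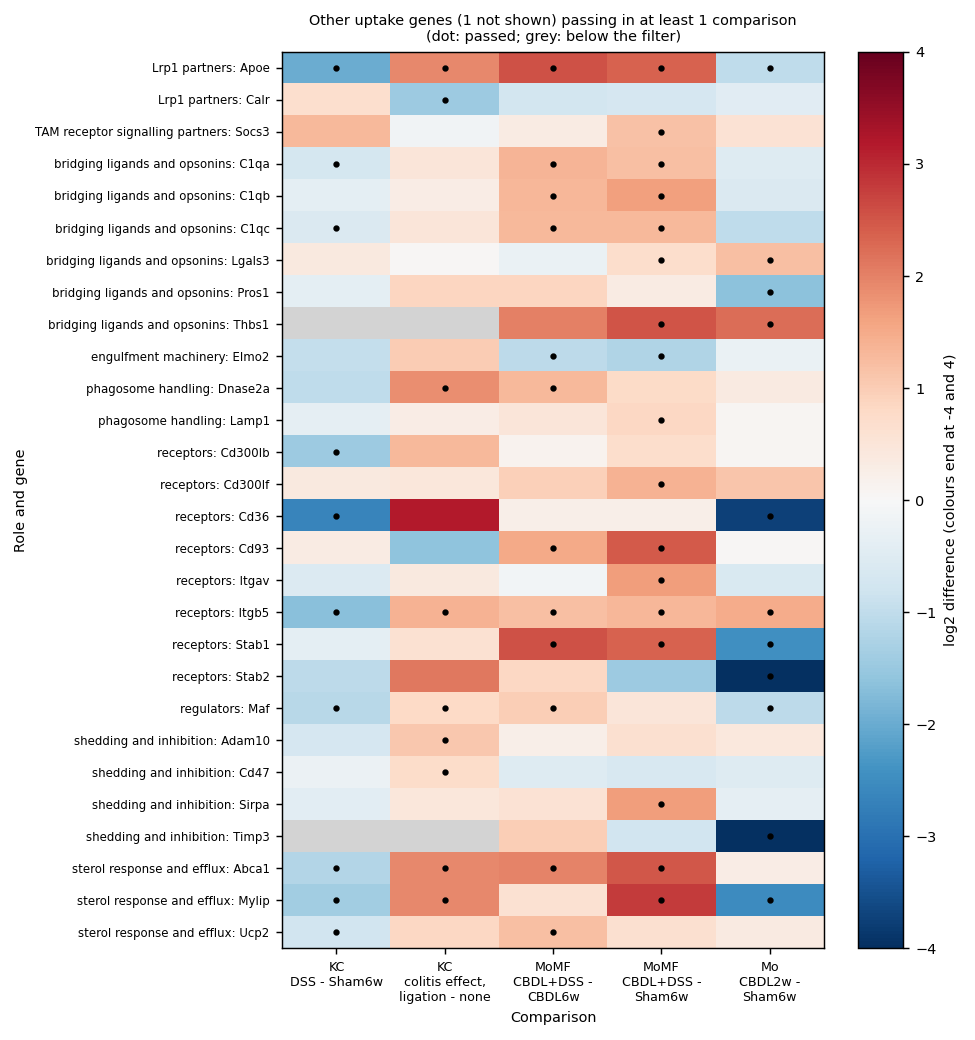
Log2 differences (colour) of 28 of the 29 listed uptake genes that passed limma in at least 1 of 5 comparisons, by role, with a dot where a gene passed and grey where it was below the filter. Apoe carries a dot in all 5 columns, lower in DSS Kupffer cells and in CBDL2w monocytes and higher in the other 3.

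Genes whose pattern over the 15 group means was most like each member were ranked by Pearson's r among 6573 genes, as a description in which the groups share libraries and cell types. For Mertk they were Pcyox1 (r = 0.96), Cd164 (0.95), Frmd4b (0.95), Lpl (0.94) and Nagk (0.94), and for Axl C1qb (0.98), C1qa (0.98), C1qc (0.98), Cpq (0.97) and Frmd4b (0.97). For Gas6 they were Selenop (0.97), Pros1 (0.93), Ap1b1 (0.89), Rhoc (0.87) and Rcn3 (0.87), and for Lrp1 Wdfy3, Grn, Lima1, Pik3r1 and Ncoa4. Among the members, r was 0.93 for Mertk with Lrp1, 0.86 for Mertk with Axl and 0.49 for Mertk with Gas6.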

How the data were processed

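Messenger RNA was measured by 3′ tag sequencing with unique molecular identifiers, per the labels' protocols. Per the submitters' processing notes, the build was GRCm38.p6 and the tools were RSEM 1.3.1, STAR 2.7.5b, DESeq2, UMI-tools 1.0.1 and Trimmomatic (0.39 and 0.39-1), in no stated order. The sources used here do not give the annotation, the strand setting or how identifiers were collapsed. The deposited signal is a normalized count, for which the authors divided counts by 1 size factor per library. Dividing by the smallest step gave whole reads for 100% of values within 0.01. The values were tested with limma 3.58.1 in R 4.3.3 on log2(normalized count + 1), for genes at 10 or more in at least 3 libraries, with 1 fit per cell type over 5 groups and 1 over all 58 libraries between cell types. Alternatives were DESeq2 1.42.0 and edgeR 4.0.16 on recovered reads, a pseudocount of 5, no filter, equal totals, a replicate block, only libraries with single replicate numbers, and each library left out. The fit was run on simulated counts for DSS against Sham6w in Kupffer cells only. That check did not cover the other cell types or comparisons, and its outcome is not reported here. Between cell types of an injury group, same-numbered libraries deviated together slightly more than others, with a median correlation of 0.035 against -0.011. Correlations of same-numbered libraries ran from -0.0611 to 0.095 there and from -0.0552 to 0.0666 between injury groups. The medians between injury groups were 0.0008 for same-numbered and -0.0004 for other libraries. No correlation passed 0.1, the limit set here, so the numbers were not treated as pairs. The 4 members were named in every comparison, other uptake genes as up to 3 per role with the largest change among those passing, and like genes as the 5 with the highest r, predicted genes left out. The values of 1 listed gene are not reported here. The members and lists were chosen with earlier results of these data known.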

Additional observations from a re-analysis of the deposited data

Results flagged for a closer look

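Of 52 sets of 4 libraries checked (1 gene in 1 group each), 3 held a library that stood far from the others relative to the spread, where chance gives about 1 in 20. Axl in CBDL2w monocytes was 27.9 in replicate 2 and 8.87 to 10.6 in the others. Lrp1 in Sham6w Kupffer cells was 100.3 in replicate 3 and 140.1 to 146.1 in the others. Lrp1 in CBDL+DSS Kupffer cells was 233 in replicate 2 and 163 to 175 in the others.

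The effect of colitis differed between mice with and without ligation by a test of the difference itself. This difference (log2, limma) was 1.39 for Mertk and 0.93 for Axl in Kupffer cells, and 3.73 for Mertk and 1.71 for Axl in MoMF. The effect of injury on Gas6 differed between Kupffer cells and monocytes by the same kind of test, by 4.12 in CBDL2w, 2.84 in CBDL6w and 3.01 in CBDL+DSS. Some of these calls depended on single libraries. Axl in MoMF was lost without any 1 of 11 of 15 libraries. Gas6 in CBDL6w and CBDL+DSS was lost without any 1 of 13 and of 12 of 15. In monocytes the endothelial marker share was 0.206 to 0.358% in Sham6w and at most 0.023% in each ligated group. The part of other cells in the Gas6 differences was not tested.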

How the results depend on the processing

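All alternatives left the direction of the 21 member values passing within a cell type as it was. DESeq2 and a pseudocount of 5 kept all 21 past the threshold, edgeR and equal totals 20, no filter 13, single replicate numbers 9, and leaving out 1 library kept 148 values and lost 45. A single value given here is one whose call was lost unless stated, a range spans all fits without 1 library, and the cause was not tested; fewer libraries or more genes enter some fits. Of 105 member values the text does not name, 44 changed sign in some setting and 0 of those passed, while 5 passed in some setting.

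In Kupffer cells, DSS against Sham6w gave Mertk -0.63 with no filter, -0.53 with equal totals and -0.50 to -0.74 without 1 library. CBDL+DSS against CBDL6w gave Mertk 0.77 with no filter, 0.65 with single numbers and 0.69 to 0.83 without 1 library. CBDL+DSS against DSS gave Mertk 0.76 with single numbers, Axl 0.66 with no filter and 0.64 with single numbers, and Gas6 1.57 and 1.55 likewise. The difference of colitis effects for Axl was 0.93 with no filter and 0.91 with single numbers.

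In MoMF, Axl in CBDL+DSS against CBDL6w was 1.07 with no filter and 0.91 to 1.25 without 1 library, and its difference of colitis effects 1.71 with no filter, 2.06 with single numbers and 1.54 to 1.90 without 1 library. In monocytes against Sham6w, Mertk was -1.71 in CBDL2w with single numbers (-1.76 to -1.24 without 1 library), and in CBDL6w -1.37 with no filter, -1.23 by edgeR and -1.52 with single numbers (-1.59 to -1.12 without 1 library). Gas6 with single numbers was -3.47 in CBDL2w, -2.72 in CBDL6w (-3.12 to -2.34 without 1 library) and -2.13 in CBDL+DSS (-2.84 to -2.19 without 1 library), and -1.99 in CBDL+DSS against DSS (-2.61 to -1.99 without 1 library). Gas6 in DSS, not called, ran from -0.51 to 0.10 without 1 library.

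With the replicate number as a block, although the numbers were not treated as pairs, calls were lost in each cell type. A replicate label found in no other group of its cell type took a block of its own and did not inform its group's value. Kupffer cell CBDL+DSS thus rested on replicate 2 alone, Sham6w MoMF on replicate 3 alone and Sham6w monocytes on replicate 4 alone. Block values that use these groups are effect sizes only and do not test pairing. In Kupffer cells the block gave Mertk -0.63 in DSS against Sham6w, 0.50 against CBDL6w, 0.61 against DSS and 1.13 for the difference of effects; Axl 0.87 against DSS and 1.14 for the difference; Gas6 1.5 and Lrp1 1.11 against DSS. In MoMF it gave Axl 0.94 against CBDL6w and 1.87 for the difference. In monocytes it gave Mertk -2.05 in CBDL2w and -1.86 in CBDL6w, and Gas6 -2.90 in CBDL2w, -2.15 in CBDL6w, -1.61 in CBDL+DSS and -2.04 against DSS. Uncalled values turned sign under the block for CBDL+DSS against Sham6w, at -0.013 for Mertk and 0.037 for Axl in Kupffer cells and -0.10 for Mertk in MoMF, and for Gas6 in DSS monocytes at 0.44.

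Counts of members passing moved as follows. In MoMF against Sham6w 1 passed in CBDL6w by DESeq2, in DSS by a pseudocount of 5, edgeR and DESeq2, and in CBDL+DSS by a pseudocount of 5 and DESeq2, with 0 to 1 without 1 library; DESeq2 passed 1 in MoMF CBDL2w against CBDL6w, monocyte DSS against Sham6w, the monocyte difference of effects and MoMF against monocytes in CBDL6w. Kupffer cells against MoMF in Sham6w gave 0 with the block and 1 with single numbers, against monocytes 1 with single numbers, and against MoMF in CBDL+DSS 1 with single numbers (1 to 2 without 1 library). MoMF against monocytes gave 0 in Sham6w by edgeR, DESeq2 and single numbers (0 to 1 without 1 library), 1 in CBDL2w with no filter (0 to 2) and 1 in CBDL+DSS with no filter and single numbers (1 to 3). The Gas6 effect differences gave 0 members with no filter, the block and single numbers in CBDL6w and CBDL+DSS, and by edgeR in CBDL6w (0 to 1 without 1 library in both). Depth limits Gas6 most, at 0 to 24 reads per library.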
